A study of Mus musculus with 4 samples.

Results

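The cells described here were selected in the aged mouse kidney as nonclassical monocytes. The selection used UMIs (unique molecular identifiers, 1 per captured RNA molecule) of Treml4, Ace, Ear2 and Gngt2. A cell barcode was a member when these 4 genes together had at least 3 UMIs, with at least 2 of the 4 detected, and when Ptprc and Csf1r each had at least 1. It was left out when Ly6c2 exceeded 1 UMI, when C1qa, C1qb and C1qc together exceeded 9, when any Cd3 chain or Cd79a was detected, or when the tubule genes Lrp2 and Slc34a1 together exceeded 3. The rule found 938 members among 18091 Ptprc-positive barcodes and among 50605 barcodes of at least 500 UMIs, at least 300 genes and at most 50% mitochondrial UMIs, out of 76278 deposited. BPTES replicates 1 and 2 held 265 and 218 members, and DMSO replicates 1 and 2 held 268 and 187. No barcode sequence was shared between members of different libraries. By genes outside the rule, the name held for the 615 members with all 4 genes detected. The 215 with 2 detected went against it, with high MHC class II and dendritic cell RNA, as given below. The 108 with 3 detected were also high in class II RNA.

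Monocytes leave the bone marrow as classical cells, marked in the mouse by Ly6C and the chemokine receptor Ccr2, and a part of them converts in the blood to nonclassical cells under the nuclear receptor Nr4a1 and the transcription factor Cebpb. Nonclassical monocytes crawl along the inner wall of small vessels, held by the integrin whose alpha chain is Itgal and guided by the fractalkine receptor Cx3cr1, and take up immune complexes through Fcgr4. The kidney, with its dense capillaries, is one of the organs in which this patrolling has been described.

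Kidneys came from male C57BL/6 mice aged 19 months that received either BPTES, a small-molecule inhibitor of glutamine metabolism, or its vehicle DMSO for 1 month. Kidneys were digested with Liberase and sorted on CD45, the protein of Ptprc. For 10x 3' single-cell RNA sequencing 9000 cells of the CD45-positive gate were mixed with 20000 of the CD45-negative gate. There were 2 libraries per group, of 17907 to 20091 barcodes and 249881074 to 297947661 UMIs each. The sources used here do not say that the libraries are separate animals, so p-values measure the spread between these libraries, which may be technical. Between 90 and 114 barcode sequences recurred between any pair of libraries over all barcodes. The libraries' summed profiles of members correlated across genes, on log2 CPM, with coefficients of 0.928 to 0.972. This range covers all pairs of libraries, within and between treatments, and genes are not independent replicates.

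The 4 genes of the rule lie apart in the genome (GRCm38 coordinates, GENCODE vM21, all on the forward strand). Treml4, a receptor of the TREM family, spans chr17:48264295-48275360, and Ace, the angiotensin-converting enzyme, spans chr11:105967945-105989964. Ear2, a secreted ribonuclease of the eosinophil-associated family, spans chr14:44102654-44103534, and Gngt2, a G protein gamma subunit, spans chr11:95837216-95845734. All 4 were detected in 615 members (65.6%), 3 in 108 (11.5%) and 2 in 215 (22.9%). The members were chosen by these UMI counts, whose values are a description. In members with all 4 markers, Treml4 stood at 361, 363, 317 and 414 CPM (UMI counts scaled to a common library total) in BPTES 1, BPTES 2, DMSO 1 and DMSO 2, and Ace at 609, 643, 473 and 521. Ear2 stood at 872, 927, 815 and 843 and Gngt2 at 928, 1021, 1342 and 1089 in the same order.

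Genes that the rule did not use set the members with all 4 markers apart from those with 2. The following levels are CPM of UMIs summed over the 4 libraries, for members with 2, 3 and 4 markers in that order. Adgre4, an adhesion receptor of myeloid cells, stood at 34.8, 332 and 1062. Spn, the sialoprotein CD43, stood at 37.0, 101 and 382, and Fcgr4 at 30.5, 105 and 351. Cd300e, an activating receptor, stood at 6.53, 57.4 and 364, and Eno3, a glycolytic enolase known as a marker of these cells, at 10.9, 33.4 and 253. All 5 genes thus had a higher level with each further marker. Nr4a1 was detected in every class, at 474, 420 and 938.

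Antigen-presentation and dendritic cell genes ran the other way. H2-Aa, a chain of MHC class II, stood at 10750, 7470 and 700 CPM in members with 2, 3 and 4 markers, and Cd74, its invariant chain, at 20518, 14483 and 1712. The lectin gene Cd209a stood at 855, 360 and 24.3, and Flt3, the growth factor receptor of dendritic cells, at 107, 93.4 and 5.81. Ccr2 stood at 421, 482 and 98.9, and the proliferation gene Mki67 at 108, 192 and 2.27. At least 3 UMIs over a list of 14 dendritic cell genes were found in 127 of 215 members with 2 markers. The same held for 40 of 108 with 3 and 34 of 615 with 4. By these genes the members with all 4 markers carry the profile of their name, whereas those with 2 markers were high in class II and dendritic cell RNA and go against it. Neutrophil RNA was present across the members, with S100a9 at 3240, 472 and 1724 and at least 10 UMIs of neutrophil genes in 69, 7 and 70 members of the classes.

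**Figure D1:**
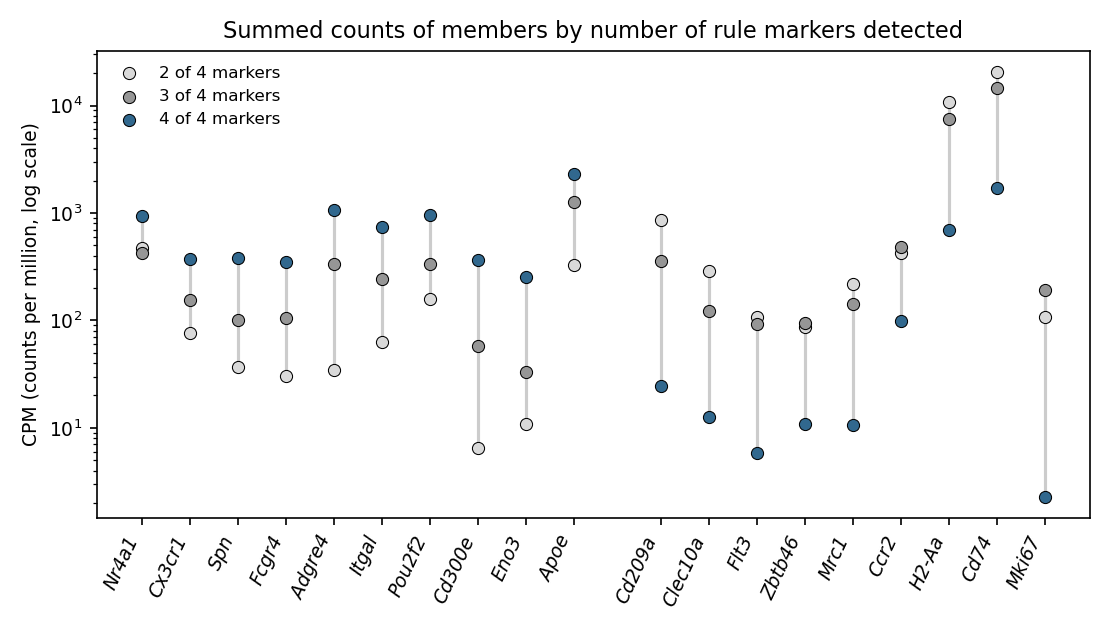
Summed CPM on a log axis, for members with 2, 3 or 4 of the rule markers detected, 1 point per class and gene with all libraries summed. Adgre4, Spn, Fcgr4, Cd300e and Eno3 climb with the number of markers (Adgre4 from 34.8 to 1062), while Nr4a1 is lower with 3 markers than with 2. H2-Aa, Cd74, Cd209a and Flt3 descend (H2-Aa from 10750 to 700).

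The edges of the rule show the same division. The 31 members with a marker sum of exactly 3 had H2-Aa at 8105 CPM and Adgre4 at 47.2, and the 24 barcodes that failed only by a sum of 2 had 5801 and 51.8. The 207 barcodes that failed only because a single marker was detected had H2-Aa at 10278 and Adgre4 at 22.5. The 60 members with 1 Ly6c2 UMI had Adgre4 at 560 and Cd300e at 101, and the 30 barcodes with 2 Ly6c2 UMIs had 665 and 89.5. The 33 members with 4 to 9 C1q UMIs had Adgre4 at 355, and the 18 barcodes with 10 to 15 had 197. Barcodes just outside on Ly6c2 thus had levels of these genes close to those just inside, and the marker edge fell among cells low in Adgre4 on both sides. In all, 265 barcodes missed the rule on Ly6c2 alone and 609 on C1q alone.

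Levels in members with all 4 markers were set beside 3 other classes of Ptprc-positive barcodes, cut by their own genes and therefore not tested. Classical monocytes had at least 3 Ly6c2 UMIs (380 barcodes), C1q macrophages at least 20 C1q UMIs (3139) and T cells at least 2 Cd3 UMIs (3680). This classical gate set no limit on the rule markers, and 60 of its barcodes had at most 2 UMIs of them. Treml4 was detected in 41.7%, 36.9%, 38.3% and 49.0% of its barcodes in BPTES 1, BPTES 2, DMSO 1 and DMSO 2. Its levels are thus those of Ly6c2-positive cells that in large part also carried rule markers. Adgre4 stood at 1194, 1134, 917 and 995 CPM in the all-4 members of BPTES 1, BPTES 2, DMSO 1 and DMSO 2, at 151 to 231 in classical monocytes, at 44.3 to 115 in macrophages and under 1 in T cells. Cd300e stood at 360, 430, 344 and 317, against 3.81 to 27.3 in classical monocytes and 7.38 to 24.2 in macrophages. For both genes every library's nonclassical value lay above every value of the other 3 classes.

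Other genes of the subset were shared more widely. Nr4a1 stood at 1020, 878, 876 and 1012 CPM in members with all 4 markers, at 478 to 790 in classical monocytes and at 132 to 194 in macrophages. Cx3cr1 stood at 372, 335, 400 and 384, below the 542 and 560 of macrophages of the DMSO libraries and overlapping the 428 and 359 of the BPTES libraries. Fcgr4 stood at 389, 373, 313 and 325 in these members and at 224 to 287 in macrophages, and Spn at 411, 427, 336 and 355, with 152 to 162 in T cells. Ccr2 had the opposite order, at 97.1, 33.6, 151 and 108 in the members with all 4 markers and at 820 to 1308 in classical monocytes. Of Nr4a1, Cx3cr1, Fcgr4 and Spn, Cx3cr1 was the gene with macrophage values above those of the members.

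**Figure D2:**
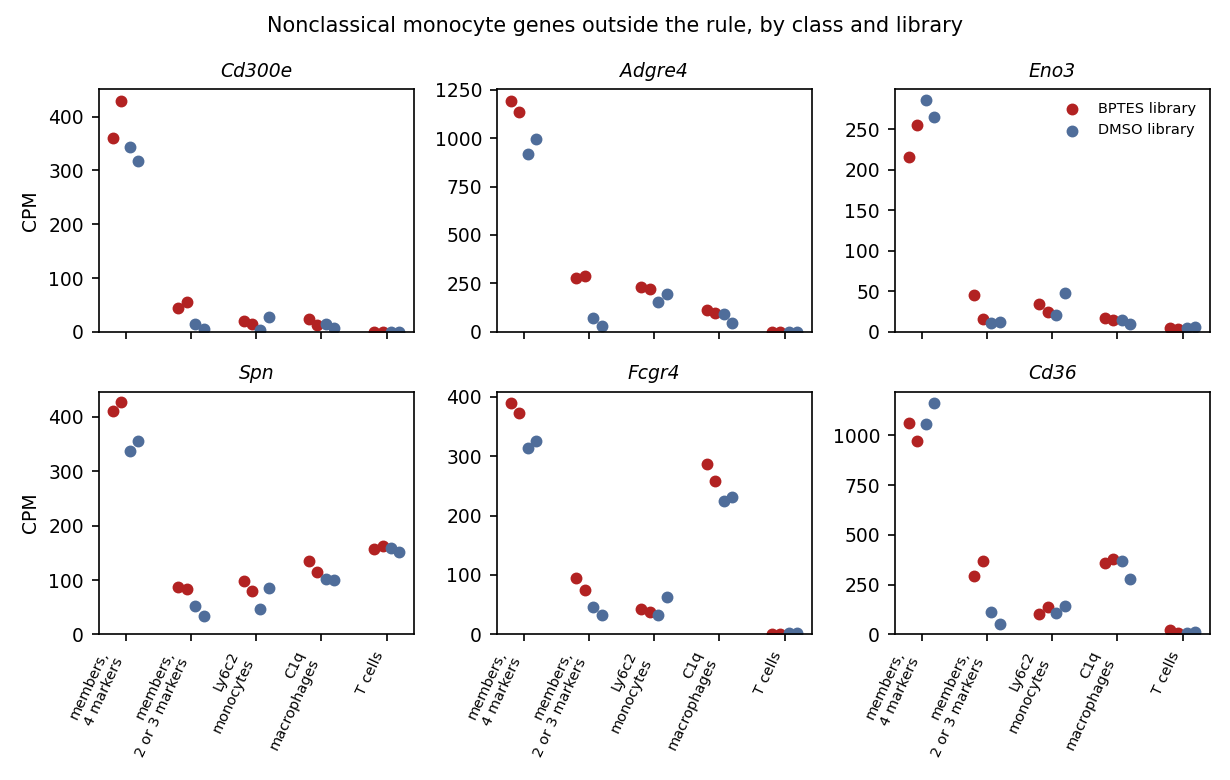
CPM (linear axis from 0) of 6 nonclassical monocyte genes outside the rule, by class, with 1 point per library coloured by treatment. Adgre4 and Cd300e separate the members with all 4 markers from every other class, while Fcgr4 reaches 287 in macrophages.

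The share of members among Ptprc-positive barcodes was compared between treatments. All members made up 5.88% and 5.13% of these barcodes in BPTES 1 and 2 (exact 95% binomial intervals 5.21 to 6.61 and 4.48 to 5.83) and 5.42% and 4.26% in DMSO 1 and 2 (4.81 to 6.09 and 3.68 to 4.90). The groups overlapped, at 5.50% ± 0.530 (SD, n = 2) with BPTES and 4.84% ± 0.824 (SD, n = 2) with DMSO, and the exact two-sided permutation p was 0.667. With 2 libraries a group the smallest p this test can give is 0.333. Members of the DMSO libraries were deeper, at medians of 18883 and 20085 UMIs against 15164 and 15230. With each barcode thinned to 2000 UMIs before the rule, the shares were 5.02% ± 0.311 and 3.43% ± 0.862 (SD, n = 2; ratio 1.46) and did not overlap. Neither did they with a marker sum of at least 5 and 3 detected (ratio 1.45) or per Csf1r-positive barcode (ratio 1.28), each with an exact permutation p of 0.333. The groups still overlapped with a mitochondrial limit of 25% (ratio 1.14) and with doublets removed (1.17). They also overlapped with a C1q sum up to 3 (1.16) and with Ly6c2 at 0 (1.12), each of these with an exact permutation p of 0.667. These intervals cover counting error only, and the fixed mixture of sorted cells means that shares hold within the CD45-positive side.

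The number of markers detected in the members is described here by treatment, with no test, since the rule chose members on these UMI counts. All 4 markers were detected in 75.5% and 73.9% of the members of BPTES 1 and 2 and in 59.7% and 50.3% of those of DMSO 1 and 2 (74.7% ± 1.14 and 55.0% ± 6.67, SD, n = 2). Members with all 4 markers made up 4.44% and 3.79% of Ptprc-positive barcodes with BPTES and 3.24% and 2.14% with DMSO. The groups did not overlap, and the ratio of means was 1.53, or 1.92 without DMSO replicate 1 and 1.27 without DMSO replicate 2. Members with 2 or 3 markers made up 1.39% ± 0.0714 with BPTES and 2.15% ± 0.0480 with DMSO (SD, n = 2), again without overlap.

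**Figure D3:**
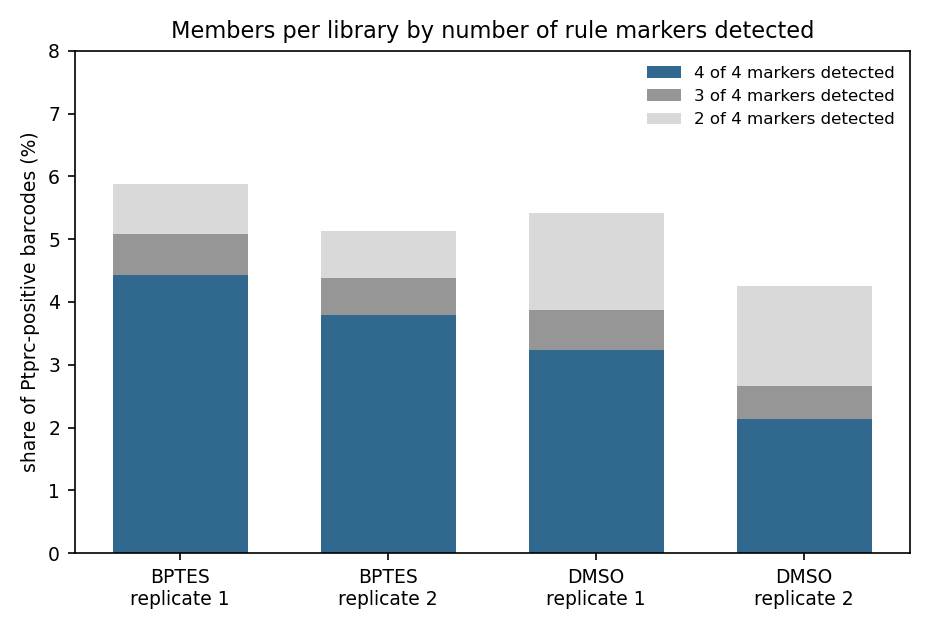
Members as a share of Ptprc-positive barcodes (stacked bars, axis from 0) in each of the 4 libraries, divided by the number of rule markers detected. The full bars overlap between treatments (5.88% and 5.13% against 5.42% and 4.26%), while the segment with 4 markers is taller in both BPTES libraries.

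Expression was then compared between BPTES and DMSO on UMIs summed per library over the members, with edgeR's quasi-likelihood test and Benjamini-Hochberg adjustment over all genes tested. Over all members 1060 of 11364 genes passed an adjusted p of 0.05 (9.33%), 630 higher with BPTES (5.54%) and 430 lower (3.78%). Among members with all 4 markers 109 of 10202 passed (1.07%), 40 higher (0.392%) and 69 lower (0.676%). An unadjusted p under 0.05 went to 28.7% of genes over all members (15.1% higher, 13.6% lower) and to 18.1% with all 4 markers (8.51% higher, 9.55% lower), and DESeq2 called 9.66% and 1.9%. Of the calls, 64 were common to both, which is 6.04% of those over all members and 58.7% of those with all 4 markers. No gene called over all members was still called when either BPTES library was left out, with 2539 genes and 2209 genes at an unadjusted p under 0.05 without BPTES 1 and 2. No gene called with all 4 markers was still called without DMSO 1, with 1377 genes at an unadjusted p under 0.05. Each of these fits leaves a group with 1 library, which is assumed to vary like the other group. In summed counts, a change in the mixture of cells and a change of RNA per cell cannot be told apart, and the shares of members with 4 and with 2 or 3 markers did not overlap between the groups, as given above.

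Over all members, nonclassical monocyte genes outside the rule were higher with BPTES. Of 21 tested, 10 rose, against 5.54% of all genes, and none fell (median log2 fold change 0.71, against -0.0155 over all genes), and 18 did not overlap between groups in that direction, which 30.0% of all genes did. Itgal stood at 627 and 663 CPM with BPTES and at 326 and 303 with DMSO, a log2 fold change of 1.04 ± 0.09 (SE; adjusted p = 0.00591). Adgre4 stood at 915 and 861 against 504 and 384 (1.00 ± 0.14, adjusted p = 0.0193). The other 8 were Spn, Fcgr4, Pou2f2, a transcription factor needed for this subset, Pglyrp1, Ceacam1, Cd36, Cebpb and Hes1, a target of Notch signalling. The direction of Cd36 turned with all 4 markers required (-0.12), and those of Cd36 and Cebpb turned without members that had dendritic cell UMIs (-0.0782 and -0.075).

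Among members with all 4 markers none of the same 21 genes passed with edgeR, with 7 higher and 2 lower at an unadjusted p under 0.05 (8.51% and 9.55% of all genes), and the median was 0.13 against -0.0117 over all genes. DESeq2 called 1, the fatty acid carrier Fabp4, which was lower. Adgre4 stood there at 1194 and 1134 against 917 and 995 (log2 fold change 0.28 ± 0.10, adjusted p = 0.193), and Itgal at 803 and 860 against 570 and 738 (0.35 ± 0.14, adjusted p = 0.241). For both genes the groups still did not overlap. Nr4a1 overlapped, at 1020 and 878 against 876 and 1012.

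MHC class II genes were lower with BPTES over all members. Of 13 tested, a list that includes the costimulatory genes Cd86, Cd80 and Cd40, 9 fell, against 3.78% of all genes, and none rose (median -1.21), and all 13 were higher in both DMSO libraries, which 30.9% of all genes were. H2-Aa stood at 2401 and 3091 CPM with BPTES and at 5830 and 7000 with DMSO (-1.22 ± 0.16, adjusted p = 0.0196). Ciita, the transactivator of this gene group, stood at 84.6 and 106 against 220 and 235 (-1.26 ± 0.13, adjusted p = 0.00984). In the dendritic cell list 5 of 13 tested fell (Flt3, Cd209a, Batf3, Clec10a and Kmo), against the same 3.78%, with a median of -0.67. Its summed level was 362 and 468 CPM with BPTES and 876 and 1371 with DMSO, with no marker of the list at 0. Mgl2, a lectin of dendritic cells and macrophages, stood at 107 and 120 against 518 and 797 (-2.53 ± 0.24, adjusted p = 0.0140), and the mannose receptor Mrc1 at 19.8 and 33.7 against 127 and 173.

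With all 4 markers required, none of the 13 genes passed with edgeR (4 lower at an unadjusted p under 0.05, against 9.55% of all genes), and 2 were called lower by DESeq2, H2-DMb1 and Cd86. H2-Aa stood at 258 and 525 against 1381 and 569 (-1.33 ± 0.67, adjusted p = 0.427), and 10 of the 13 genes did not overlap in the lower direction, which 26.3% of all genes did. DMSO 1 was high for H2-Aa and DMSO 2 was close to BPTES 2. Over all members without a UMI of 6 dendritic cell genes, the directions of H2-Aa and Ciita reversed, to log2 fold changes of 0.26 and 0.38. In members with all 4 markers, the dendritic cell list had a summed level of 20.01 and 83.3 CPM against 173 and 116, without overlap and with Siglech of 14 markers at 0. Of its 9 genes tested, Cd209a fell with edgeR (0.676% of all genes fell), 6 were lower at an unadjusted p under 0.05, DESeq2 called Cd209a and Clec10a, and the median was -2.07. Cd209a UMIs remained in a few of the members with all 4 markers. It had 2 and 0 UMIs with BPTES, in 1 of 200 and 0 of 161 barcodes (a count of 0 allows up to 1.86% of barcodes with a UMI, for counting error only, and does not bound the cells that express the gene), and 187 and 79 with DMSO, in 7 of 160 and 1 of 94.

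**Figure D4:**
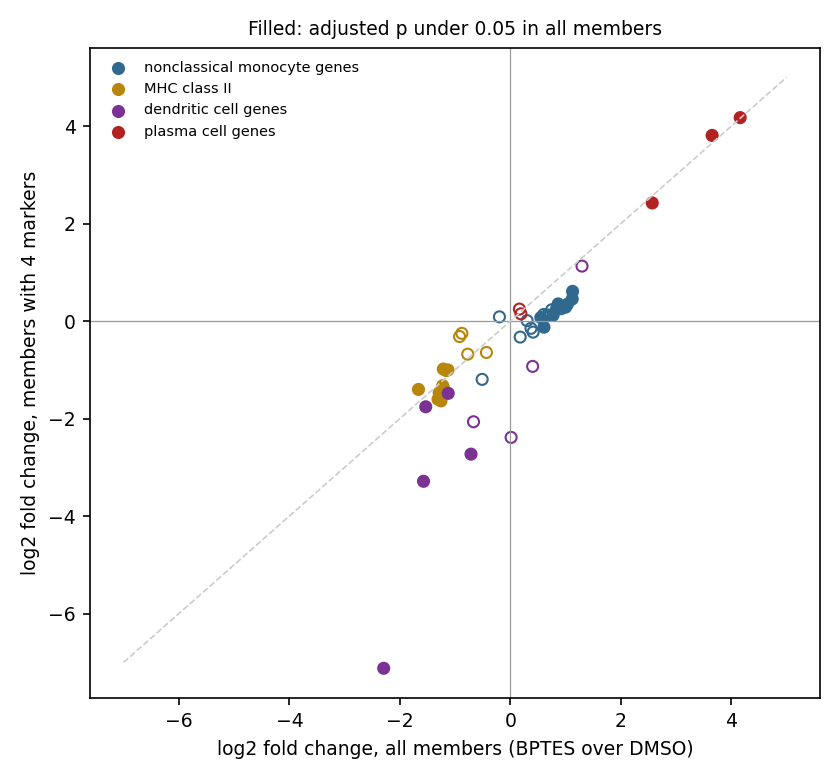
Log2 fold change (BPTES over DMSO) of 4 gene lists, over all members (x axis) against members with all 4 markers (y axis), with filled points for an adjusted p under 0.05 over all members and a dashed line where both are equal. Nonclassical monocyte genes lie mostly right of 0 and closer to 0 on the y axis (medians 0.71 and 0.13), class II genes stay below 0 on both (medians -1.21 and -1.01), and plasma cell genes lie near the dashed line.

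Other lists over all members also had calls, to be read against the 5.54% of all genes that rose and the 3.78% that fell. Of 23 transcription and survival regulators 7 rose, among them Klf2, a factor of quiescent circulating leukocytes, and 3 fell, among them Irf4. Klf2 stood at 740 and 751 CPM against 405 and 338 (1.00 ± 0.11, adjusted p = 0.0103). Of 23 adhesion and trafficking genes 8 rose and 3 fell (median 0.37). S1pr5, a receptor of sphingosine-1-phosphate, stood at 113 and 112 against 54.2 and 51.2 (1.09 ± 0.10, adjusted p = 0.00651), while Ccr2, which brings classical monocytes out of the marrow, stood at 161 and 153 against 328 and 319 (-1.04 ± 0.09, adjusted p = 0.00591). Without members that had a UMI of 6 dendritic cell genes, the log2 fold changes of Ccr2, Irf4 and Fcgr2b turned to 0.059, 0.83 and 0.0083. Of 17 Fc receptor and signalling genes 5 rose, with Fcgr4 at 300 and 276 against 182 and 139, and 2 fell, the inhibitory receptors Fcgr2b and Lilrb4a. Of 28 cytokine, chemokine and NF-kB feedback genes 1 rose and 3 fell, the chemokines Ccl2 and Ccl4 and the costimulatory ligand Tnfsf9. Of 12 heat shock genes 4 rose (median 0.39), and of 18 cell cycle genes 3 fell (median -0.70). In members with all 4 markers, edgeR called none of the genes tested in the transcription, adhesion, Fc receptor, heat shock and cell cycle lists, the last with 8 genes tested. Their counts at an unadjusted p under 0.05 were 6 higher and 4 lower, 6 and 3, 1 and 3, 7 and 1, and 0 and 0 in that order, against 8.51% of all genes higher and 9.55% lower. DESeq2 called 1, 1, 1, 4 and 0 genes in the same lists. The heat shock median was 0.51 there, and 8 of 12 of its genes were higher without overlap, against 24.7% of all genes. The rise was not particular to these members. In C1q macrophages the heat shock median was 0.80, with 8 of 12 genes higher without overlap. In classical monocytes without a limit on rule markers it was 0.37, with 8 of 11.

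Monocyte and macrophage genes were called in both directions over all members, where 5.54% of all genes rose and 3.78% fell. Of 15 classical monocyte genes 2 rose (Mgst1 and Sirpb1c) and 4 fell, among them Chil3, a secreted chitinase-like protein, at a log2 fold change of -0.99 ± 0.15 (adjusted p = 0.0185). Of 13 C1q macrophage genes 1 rose, Adgre1, and Mrc1, Cd72 and Axl fell. Of 14 scavenger and efferocytosis receptors 1 rose, the lipid receptor Cd36 with the turned directions given above, and 3 fell, and of 23 lysosomal genes 1 rose and 3 fell. The riser was Lyz2, lysozyme, at 8258 and 6684 against 3806 and 4051 (0.93 ± 0.11, adjusted p = 0.0137), which overlapped in members with all 4 markers at 10118 and 7903 against 5608 and 8049. Of 30 interferon response genes 2 rose (Ly6e and Ifi204) and 1 fell (Bst2), with a median of -0.04, and of 16 senescence and p53 genes 2 rose, Bbc3 and the cell cycle inhibitor Cdkn1b, with a median of -0.15. Of all genes 9.33% were called, so 3 calls of 30 and 2 of 16 are no result about these lists. Among members with all 4 markers edgeR called none of the 15 classical monocyte, 23 lysosomal, 30 interferon and 16 senescence genes, and called Mrc1 and Gas6, a ligand that bridges dying cells to their receptors, lower among 12 scavenger genes tested (0.676% of all genes fell). Mrc1 was also the 1 call among 11 C1q macrophage genes. It had 6 and 9 UMIs there against 70 and 31, and Gas6 16 and 8 against 73 and 36. Both calls were lost with the combined filter on doublets and on endothelial, dendritic and natural killer cell UMIs given below. Unadjusted p-values under 0.05 went to 1 higher and 4 lower interferon genes and to 1 higher and 2 lower senescence genes, against 8.51% of all genes higher and 9.55% lower, and DESeq2 called 1 (Ifi44) and 0.

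Genes of glutamine metabolism were called in both directions. Of 24 glutamine and glutamate genes tested over all members 1 rose and 3 fell, with a median of 0.01, against 9.33% of all genes called. Glul, glutamine synthetase, overlapped at 37.8 and 36.8 CPM with BPTES against 34.3 and 38.4 with DMSO. Gfpt1, which spends glutamine on hexosamines, rose from 115 and 124 to 254 and 229 (1.02 ± 0.10, adjusted p = 0.00923), and the aspartate aminotransferase Got1 and the amino acid carriers Slc38a1 and Slc3a2 fell. With all 4 markers edgeR and DESeq2 called none of 23, with 2 higher and 3 lower at an unadjusted p under 0.05 (18.1% of all genes in either direction), and Gfpt1 stood at 315 and 293 against 164 and 254. The amino acid stress list had 1 call of 14 over all members, Nupr1, which rose.

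Transcripts of the respiratory chain had medians of opposite sign by the genome that encodes them. All 13 mitochondrially encoded genes were higher in both BPTES libraries over all members, as were 12 of 13 with all 4 markers (median 0.32 in each), which 30.0% and 24.7% of all genes were. None passed with edgeR in either set, 7 and 11 had an unadjusted p under 0.05, against 28.7% and 18.1% of all genes, and 4 and 2 were called by DESeq2. With all 4 markers these genes made up 3.49% and 3.62% of all UMIs with BPTES and 2.92% and 2.95% with DMSO. Without the barcodes over 25% mitochondrial UMIs the shares were 2.67% and 3.30% against 2.75% and 2.95%, which overlap, the median was 0.11 and none of the 13 had an unadjusted p under 0.05 with edgeR. Over all members the same limit left 2.74% and 2.69% against 2.54% and 2.17%, which do not overlap, with a median of 0.24 and 7 of 13 genes at an unadjusted p under 0.05. The median share of mitochondrial UMIs per barcode overlapped between groups in both sets. It stood with all 4 markers at 1.60% and 1.47% against 1.48% and 1.52%, and over all members at 1.63% and 1.46% against 1.52% and 1.37%. Of 24 nuclear genes tested 5 fell over all members (Ndufb8, Cox5b, Cox6c, Cox8a and Atp5g1; median -0.35; 3.78% of all genes fell), and 21 of 24 were lower in both BPTES libraries, against 30.9% of all genes. With all 4 markers none passed with edgeR or DESeq2, 12 were lower at an unadjusted p under 0.05 (9.55% of all genes), and 20 of 24 were lower in both BPTES libraries (median -0.31), against 26.3% of all genes. Cox5b, a subunit of cytochrome oxidase, stood there at 165 and 168 against 227 and 213. In C1q macrophages the median of the nuclear genes was -0.34 and that of the mitochondrial genes -0.0729.

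In members with all 4 markers, the genes that rose with BPTES included Pde3b, Pdcd4, Mxi1, Ets1 and Rfx2. Pde3b (chr7:114415281-114539251), a phosphodiesterase that degrades cyclic AMP, stood at 229 and 192 CPM with BPTES and at 58.4 and 87.4 with DMSO. Both BPTES libraries lay above both DMSO libraries, with a log2 fold change of 1.56 ± 0.21 (adjusted p = 0.0346). Pdcd4, an inhibitor of translation initiation, stood at 177 and 178 against 79.4 and 75.2 (1.19 ± 0.12, adjusted p = 0.0157). Mxi1, an antagonist of Myc, stood at 249 and 282 against 124 and 138 (1.02 ± 0.13, adjusted p = 0.0262). Ets1, a transcription factor, stood at 191 and 194 against 89.6 and 105 (0.99 ± 0.13, adjusted p = 0.0270). None of these genes overlapped between groups. Rfx2, a factor of the RFX family, stood at 48.1 and 52.3 against 8.96 and 6.99 (2.61 ± 0.22, adjusted p = 0.00796), and its log2 fold change in C1q macrophages was 2.33. The ubiquitin ligase gene Herc4 (702 and 714 against 334 and 405), the F-box gene Fbxl20 (129 and 137 against 62.1 and 60.0) and the lymphangiogenic growth factor Vegfc (109 and 137 against 38.3 and 50.1) also rose.

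Fth1, Hmox1 and Sod2 were among the genes that fell with BPTES in the members with all 4 markers. Fth1 (chr19:9980598-9985098), the ferritin heavy chain, stood at 3523 and 3807 CPM with BPTES and at 7426 and 5678 with DMSO (-0.84 ± 0.13, adjusted p = 0.0471). Hmox1, which degrades heme, stood at 129 and 152 against 243 and 294 (-0.93 ± 0.15, adjusted p = 0.0457). Sod2, the mitochondrial superoxide dismutase, stood at 110 and 99.8 against 189 and 191 (-0.85 ± 0.12, adjusted p = 0.0331). The 2 groups did not overlap for any of the 3 genes. Over all members Hmox1 overlapped between the groups at 97.5 and 122 against 137 and 116, and the calls of Hmox1 and Sod2 were absent there (adjusted p = 0.407 and 0.0636). The metallothionein Mt1 and Cstb, an inhibitor of cathepsins, also fell.

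F10, Abca1 and Nampt fell in these members as well. F10, coagulation factor X, stood at 123 and 87.8 against 276 and 263 (-1.35 ± 0.17, adjusted p = 0.0262), and its log2 fold change in C1q macrophages was 0.30. Abca1, which exports cholesterol, stood at 56.1 and 57.9 against 109 and 107 (-0.92 ± 0.13, adjusted p = 0.0315). Nampt, the enzyme of NAD salvage, stood at 59.1 and 64.6 against 114 and 105 (-0.83 ± 0.13, adjusted p = 0.0466). For each of these genes both BPTES values lay below both DMSO values. Lilr4b, an inhibitory immunoglobulin-like receptor, stood at 151 and 146 against 313 and 266, and Malt1, a protease of NF-kB signalling, at 348 and 429 against 699 and 727, and both fell. Ccl2 stood at 5.67 and 8.97 against 26.6 and 22.1 (-1.76 ± 0.30, adjusted p = 0.0471). Cd38, a consumer of NAD, stood at 4.48 and 5.98 against 19.5 and 12.8 and missed the threshold (-1.66 ± 0.36, adjusted p = 0.0761).

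**Figure D5:**
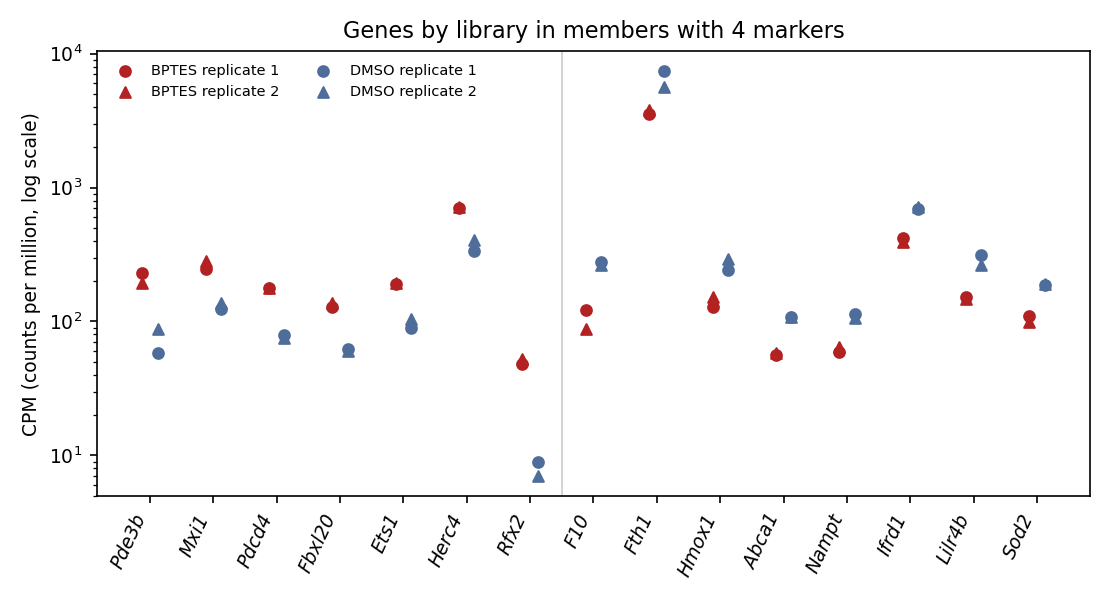
CPM on a log axis of 15 called genes in members with all 4 markers, 1 point per library (colour for treatment, shape for replicate). Both BPTES libraries lie above both DMSO libraries for the 7 genes on the left, from Pde3b to Rfx2, and below them for the 8 on the right, from F10 to Sod2.

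RNA of other cell types moved with treatment in the members too. Igkc (chr6:70726435-70726966), the kappa light chain of antibodies, stood at 298 and 387 CPM with BPTES and at 62.1 and 65.9 with DMSO in members with all 4 markers (2.42 ± 0.16, adjusted p = 0.00314). Igha and Jchain, the IgA heavy chain and the joining chain, rose as well, making 3 of 5 plasma cell genes tested, against 0.392% of all genes called higher. With each barcode thinned to 2000 UMIs, Igkc was detected in 44.0%, 52.2%, 12.5% and 11.7% of these members and in 58.4%, 64.4%, 19.8% and 21.2% of T cells of BPTES 1, BPTES 2, DMSO 1 and DMSO 2. Before thinning the shares were 97.5%, 98.8%, 64.4% and 74.5% of members, at median depths of 15189, 15299, 16738 and 15893 UMIs, and 98.0%, 99.2%, 63.8% and 63.6% of T cells at 11394 to 11937 UMIs. The thinned shares in members lay below those in T cells of the same library, which do not make antibody, so they are not read as expression by the members.

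Endothelial and natural killer cell UMIs were also present in the members with all 4 markers. Plvap, a protein of fenestrated endothelium, had 28 and 8 UMIs with BPTES and 335 and 182 with DMSO in members with all 4 markers, and of the latter 332 and 180 lay in 8 and 6 barcodes with at least 3 endothelial UMIs, 7 and 4 of them marked as doublets. The summed endothelial level was 405 and 517 CPM against 574 and 622, with none of 9 markers at 0, of which Pecam1, known also on monocytes, stood at 306 and 470 against 164 and 205. Ncr1 and Klrb1c, receptors of natural killer cells, had 33 and 31 UMIs and 26 and 16 UMIs with BPTES and none with DMSO. The summed T and natural killer cell level was 41.5 and 97.2 against 9.89 and 4.66. The summed neutrophil level was larger and overlapped, at 3896 and 5628 CPM against 2570 and 4171, beside 176 to 431 in T cells. Of 8 neutrophil genes tested edgeR and DESeq2 called 0, with 3 higher and 0 lower at an unadjusted edgeR p under 0.05 (8.51% and 9.55% of all genes). No fit filtered barcodes on the neutrophil or plasma cell lists. A combined filter removed barcodes marked as doublets and those with at least 3 endothelial UMIs. It also removed those with any UMI of 6 dendritic cell genes, Ncr1 or Klrb1c. Barcodes with 1 or 2 endothelial UMIs stayed. After it 46 genes passed instead of 109. Pde3b (1.67, adjusted p = 0.00496), Pdcd4, Mxi1, Ets1, Rfx2, Fth1 (-0.89, adjusted p = 0.0200), Hmox1, Sod2, F10, Abca1 and Nampt were among them, whereas Vegfc and Ccl2 were not (Ccl2 at -0.88, adjusted p = 0.468). Single filters gave other calls. Fth1 and Nampt missed the threshold when the doublets alone were removed (adjusted p = 0.0527 and 0.052), and Fth1, Hmox1, Nampt, Cstb and Vegfc missed it with at most 2 endothelial UMIs (0.0781, 0.0536 and 0.0677 for the first 3). Of the 14 fits of members with all 4 markers, Rfx2 was called in 13, Pde3b, Pdcd4, Mxi1 and Ets1 in 12, F10 in 11, Sod2 and Abca1 in 10, Hmox1 in 9, Fth1 and Nampt in 7 and Ccl2 in 4.

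Whether the response to BPTES differed from that of related cells was tested as the difference in treatment effect, with library as a block. Against C1q macrophages of the same libraries 202 of 13629 genes passed (1.48%), 74 with a higher (0.543%) and 128 with a lower effect in the members (0.939%). Rnase4, a secreted ribonuclease, had an effect higher by 2.24 ± 0.17 on the log2 scale (adjusted p = 0.00696), and with all 4 markers required by 1.92 (adjusted p = 0.0273). The B cell scaffold gene Bank1 had an effect higher by 1.58 ± 0.15 (adjusted p = 0.00802), and the adaptor Blnk an effect of -2.15 ± 0.21 relative to macrophages (adjusted p = 0.00881). With all 4 markers 11 genes passed, and Bank1 and Blnk missed the threshold (adjusted p = 0.0569 and 0.0795).

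Against classical monocytes 59 of 10579 genes passed (0.558%), 35 higher (0.331%) and 24 lower (0.227%). The classical gate of that test allowed at most 2 UMIs of the rule markers and held 60 barcodes, 8 to 25 per library. Mrc1 had a difference of -5.64 ± 0.76 (adjusted p = 1.98e-08) and Ccl2 of -4.58 ± 0.70 (adjusted p = 1.34e-05). These values rest on few counts, since the classical monocytes of DMSO 1 and 2 held 1 and 1 UMIs of Mrc1 and 0 and 6 of Ccl2. With the limit on rule markers dropped, which gave 380 classical barcodes, 2 genes passed, and the differences of Mrc1 and Ccl2 were -2.46 (adjusted p = 0.119) and -1.40 (adjusted p = 0.0527). With that wider gate and all 4 markers required of the members, 31 genes passed, Mrc1 among them at -2.95 (adjusted p = 0.0221), whereas Ccl2 did not (-1.10, adjusted p = 0.375). Mrc1 was detected in few of these members, 4 of 200, 8 of 161, 9 of 160 and 5 of 94 in BPTES 1, BPTES 2, DMSO 1 and DMSO 2. In those 380 classical monocytes 7 of 9727 genes passed between treatments (0.072%), and in C1q macrophages 47 of 13983 (0.336%).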

How the data were processed

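Per the submitters' processing notes, the reads were processed with Cell Ranger 8.0.1 against mm10. The deposited files hold raw UMI counts per gene and barcode for 4 libraries, 31054 features each; 35 symbols occur more than once. No deposited cell annotation was used. Members, gene lists and tests were chosen with earlier results of these data known, and members with all 4 markers were set apart after seeing the data. UMIs were summed per library over members and tested with edgeR 4.0.16 in R 4.3.3 (quasi-likelihood test, robust, TMM scaling, filterByExpr, Benjamini-Hochberg adjustment, threshold 0.05, no replicate block); CPM are TMM-scaled except those by number of markers, and SE is the log2 fold change over the root of F. DESeq2 1.42.0 was an alternative. Shares were tested by exact permutation over libraries. Doublets were scored with Scrublet in scanpy 1.11.5 (30 components, the highest-scoring 7.16% to 8.04% of a library's barcodes marked) and kept; 3.77%, 2.75%, 8.21% and 4.28% of members were marked in BPTES 1, BPTES 2, DMSO 1 and DMSO 2. Gene lists numbered 35 with 544 genes, 2 of which matched no symbol. Genes named were drawn from the 4 rule markers, called list members and the 12 largest called changes in each direction. Those changes were taken at a mean log2 CPM of at least 5 without overlap. Further sources were the 5 largest of each difference between classes, Cd38, Igha, Igkc and Jchain. Genes called in at least 10 of 14 settings were added after seeing the data. Not every gene of these sets is named. Some list members that were not called, among them Nr4a1, Cx3cr1, Eno3 and Glul, are given as levels. Positions are GENCODE vM21 entries matched by identifier (602 of 602). On counts simulated for 11364 genes of all members, 52% of 2-fold and 77% of 4-fold changes were recovered with 4 false calls. For 10202 genes with all 4 markers, 44% and 77% were recovered. These counts were drawn independently per gene at the trended dispersion, with 100 genes changed at each fold. They held no change in the mixture of cells and no doublets, so the false calls give no error rate for the real fits. The labels do not say whether equal replicate numbers pair libraries. Deviations of same-numbered libraries correlated at -0.00657 over all members and 0.0494 with all 4 markers, which is 1 contrast per group and cannot decide it.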

Additional observations from a re-analysis of the deposited data

Results flagged for a closer look

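The differences in treatment effect between all members of the rule and the 2 other myeloid classes were each tested by edgeR's quasi-likelihood test. The genes with the largest differences are listed here as log2 values. Positive values mean a higher effect of BPTES in the members than in the other class, and do not by themselves mean a rise in the members.

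Against C1q macrophages, the largest positive differences were those of Rnase4 (2.24), 4933406I18Rik (1.95), Hist1h1b (1.76), Itsn1 (1.71) and Bank1 (1.58). The largest negative ones were those of Cd209a (-2.42), Blnk (-2.15), Rab3il1 (-2.04), Plxna4 (-1.97) and Plau (-1.95). With all 4 markers required, Rnase4 (1.92, adjusted p = 0.0273) and Cd209a (-7.42, adjusted p = 0.0273) passed. Of the other 8 genes none passed there, at adjusted p-values from 0.0569 for Bank1 to 0.789 for Plau. The Cd209a value rests on 2 and 0 UMIs in the BPTES libraries and is no bound.

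Against classical monocytes, the largest positive differences were those of Myo1e (9.08), Fnbp1l (8.46), Alox5 (3.38), Lrg1 (2.97) and Bcl2a1b (2.96). In the members themselves the log2 fold change was positive for Alox5 (0.83). It was negative for Myo1e (-0.99), Fnbp1l (-1.20), Lrg1 (-0.53) and Bcl2a1b (-0.67). Myo1e and Fnbp1l had no UMI in the classical monocytes of the BPTES libraries, so their fitted values are no bounds. The largest negative ones were those of Mrc1 (-5.64), Ccl2 (-4.58), Pvt1 (-3.61), Cd209a (-3.31) and Kmo (-3.06). The classical monocytes of DMSO 1 and 2 held 1 and 1 UMIs of Mrc1, 0 and 6 of Ccl2, 2 and 0 of Pvt1, 23 and 2 of Cd209a and 5 and 2 of Kmo, so those fitted values rest on few counts and are no bounds. None of the 10 passed with the 380 classical barcodes of the wider gate. The nearest were Cd209a (-1.58, adjusted p = 0.0505) and Ccl2 (-1.40, adjusted p = 0.0527). With that gate and all 4 markers required of the nonclassical monocytes, Cd209a (-6.43, adjusted p = 0.000783) and Mrc1 (-2.95, adjusted p = 0.0221) passed and the other 8 did not. Both rest on few barcodes. In DMSO 1 and 2, Cd209a was detected in 7 of 160 and 1 of 94 members with all 4 markers, and Mrc1 in 9 and 5. The treatment call of Mrc1 was lost with the combined filter on doublets and on endothelial, dendritic and natural killer cell UMIs, as given above.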

How the results depend on the processing

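The count of 1060 genes over all members became 2593 without a low-count filter, 262 with a marker sum of at least 5 and 3 detected, 232 without any UMI of 6 dendritic cell genes, 885 with DESeq2 (2204 genes without an adjusted p) and 0 to 926 when a library was left out. The share of calls higher with BPTES moved from 59.4% to 49.4% without the filter and to 36.7% with all 4 markers. The count of 109 with all 4 markers became 1190 without the filter, 194 with DESeq2, 61 without doublets, 210 without dendritic cell UMIs, 32 with at most 2 endothelial UMIs, 46 without all of these or natural killer cell UMIs, and 0 to 189 when a library was left out. Without BPTES 2 it was 18, of which 9 had been among the 109. The difference from classical monocytes (59 genes) became 30 at a mitochondrial limit of 25%, 95 without doublets, 2 with the wider classical gate, 31 with that gate and all 4 markers, and 5 to 605 when a library was left out. The difference from C1q macrophages (202 genes) became 659 without the filter, 390 without doublets, 11 with all 4 markers and 23 to 282 when a library was left out. A filter changes how many genes are tested; the cause of the other changes was not tested. The difference in the share of members per Ptprc-positive barcode ranged from 0.0793 to 1.59 percentage points over the alternatives run. That range leaves aside the subsets with 4 and with 2 or 3 markers. Per Csf1r-positive barcode it was 2.68, and 3.81 for members with all 4 markers.

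The replicate number as a block gave 1102 genes over all members, 893 of them among the 1060. With all 4 markers it gave 106, 64 of them among the 109 and without Fth1, Nampt, Cstb and Ccl2. The labels do not say whether equal numbers pair the libraries. Directions reversed without dendritic cell UMIs, as log2 fold changes over all members, for Olfm1 (0.14), Dapk1 (0.065), Cd36 (-0.0782), Cebpb (-0.075), Ccr2 (0.059) and Csf3r (-0.20). The same held for Irf4 (0.83), Fcgr2b (0.0083), Pilra (-0.075), H2-Aa (0.26), H2-Ab1 (0.25) and H2-Eb1 (0.013). It also held for H2-DMa (0.28), Cd74 (0.012), Ciita (0.38), Parp1 (0.070), Ctsh (0.055) and S100a10 (0.17). With all 4 markers required, Cd36 (-0.12) and Pilra (-0.00385) reversed. Among those members Ly6a reversed (0.16) with the combined filter on doublets and on endothelial, dendritic and natural killer cell UMIs. The difference of Myo1e reversed with the wider classical gate (-0.19 and -0.030). With 2 libraries a group and 94 to 200 members with all 4 markers in each, genes of a few UMIs per library are not resolved.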
